A study of Mus musculus with 6 samples.

Results

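The 9 naive and memory T cell genes *Tcf7*, *Lef1*, *Ccr7*, *Il7r*, *Bach2*, *S1pr1*, *Klf2*, *Foxo1* and *Cd44* were followed in RNA-seq data of whole B16F10 melanoma tumors. They were chosen by symbol, and all 9 were found among the 21358 entries of the expression table and among the 14172 genes tested. Both groups were C57/BL6 females of 6 to 8 weeks that carried subcutaneous B16F10, a spontaneous murine melanoma line that is positive for the antigen gp100. After total body irradiation, and once tumors had reached at least 150 mm3, all mice received pmel-1 splenocytes that had been activated in culture with gp100 peptide. Pmel-1 CD8 T cells carry a transgenic T cell receptor for gp100 and came from Thy1.1+ donors of 5 to 7 weeks. The ACT + IL-2 group (IL-2 tumors) then had 3 daily intraperitoneal injections of IL-2 (0.4 mg/kg) in a 9-day cycle. The ACT + NKTR-214 group (NKTR-214 tumors) had 1 intravenous dose per cycle of NKTR-214 (0.8 mg/kg), which is IL-2 with releasable polyethylene glycol chains. In both groups a second cycle began at day 9. Agent, dose, route, schedule and the time from the last dose to tumor collection thus differ together. No group without a cytokine is among these samples. Tumors were taken at day 12 from 3 mice per group, and the comparison asks how these genes differed between the 2 ways of supporting adoptive cell transfer (ACT). The host keeps its own irradiated immune system, so tumor RNA can hold both transferred and host T cells, and these values do not separate them.

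Naive and memory T cells are kept quiet and mobile by a small set of transcription factors. FOXO1, held in the nucleus when AKT signaling is low, switches on *Klf2*, *Il7r* and *Ccr7*, and KLF2 in turn drives *S1pr1*, the receptor for the lipid that guides lymphocytes out of tissues. TCF1 (*Tcf7*) and LEF1 are HMG-box factors of the TCF/LEF family that maintain naive and stem-like CD8 T cells, and BACH2 restrains effector genes. The IL-7 receptor alpha chain (*Il7r*) gives a survival signal, CCR7 guides cells to lymph nodes, and CD44 is a hyaluronan receptor that rises on T cells after antigen contact and is also made by many other cells. *Klf2* and *S1pr1* are well known in endothelial cells, and *Ccr7* in migratory dendritic cells.

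Promoter windows from RefSeq on GRCm38.p6, which run from 250 bases before to 50 bases after an annotated start, were found for 7 of the 9 genes, 11 windows in all. They were searched on both strands for CTTTGA or CTTTGT (the core that TCF/LEF factors bind), GTAAACA (a FOXO core) and CCNCNCCC (a KLF or SP core). Of 32851 mouse windows of this length, 31.2% held the TCF/LEF letters, 3.65% the FOXO letters and 49.5% the KLF letters. Shown are the windows of these genes that held TCF/LEF or FOXO letters, and that of *Il7r*, the gene with the largest log2 fold change of FPKM + 1. Capitals mark every match to the 3 motifs, and neighbouring KLF matches overlap.
*Lef1* (chr3:131156044-131156343, plus strand): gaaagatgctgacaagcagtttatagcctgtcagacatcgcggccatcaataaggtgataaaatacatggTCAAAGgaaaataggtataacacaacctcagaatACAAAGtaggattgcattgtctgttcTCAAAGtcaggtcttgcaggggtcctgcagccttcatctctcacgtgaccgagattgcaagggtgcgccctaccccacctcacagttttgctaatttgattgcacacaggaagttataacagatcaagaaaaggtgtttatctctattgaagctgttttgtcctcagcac
*Bach2* (chr4:32417185-32417484, plus strand): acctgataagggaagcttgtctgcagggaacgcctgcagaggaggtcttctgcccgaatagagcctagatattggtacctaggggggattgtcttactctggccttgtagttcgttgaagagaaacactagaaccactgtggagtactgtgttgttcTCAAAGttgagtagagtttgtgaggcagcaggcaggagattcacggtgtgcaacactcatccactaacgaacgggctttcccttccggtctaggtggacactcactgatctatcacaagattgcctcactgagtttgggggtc
*Tcf7* (chr11:52282546-52282845, minus strand): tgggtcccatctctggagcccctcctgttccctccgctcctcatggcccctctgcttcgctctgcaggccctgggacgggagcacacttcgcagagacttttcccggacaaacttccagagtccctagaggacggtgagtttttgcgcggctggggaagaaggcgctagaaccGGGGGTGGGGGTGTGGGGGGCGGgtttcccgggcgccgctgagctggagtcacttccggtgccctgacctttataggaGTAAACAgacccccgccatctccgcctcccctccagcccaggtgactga
*Il7r* (chr15:9529827-9530126, minus strand): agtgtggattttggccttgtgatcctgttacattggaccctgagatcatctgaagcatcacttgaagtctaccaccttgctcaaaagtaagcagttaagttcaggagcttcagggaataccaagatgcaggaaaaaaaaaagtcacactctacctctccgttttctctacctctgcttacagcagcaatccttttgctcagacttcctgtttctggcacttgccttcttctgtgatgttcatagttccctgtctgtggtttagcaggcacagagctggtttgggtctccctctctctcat
The *Lef1* window, at the start that lies farthest inside the gene, held 3 TCF/LEF matches, and the *Bach2* window held 1. The second *Tcf7* window held 1 FOXO match just after the start and 4 overlapping KLF matches. No match to the 3 motifs was found in the *Il7r* window. A match is a match of letters only, and no binding was measured.

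Expression is given in FPKM, read counts scaled to the exon length of the gene and to the mapped reads of the library. The low FPKM values moved in steps of 1 read, and these steps placed the 6 libraries at about 20900000 to 24600000 reads each. Depth therefore differed little, although the FPKM of all entries summed to 176419.8 in IL-2 replicate 2 and to 217581.4 or more in the other 5. Genes were compared on log2(FPKM + 1) with limma, and called at a Benjamini-Hochberg adjusted p under 0.05 over all genes tested. Adding 1 to FPKM makes the log2 fold change of low genes smaller than that of the FPKM itself. The pan T cell markers *Cd3e*, *Cd3d*, *Cd3g*, *Cd2*, *Cd5*, *Cd6* and *Lck* summed to 10.7 to 24.8 FPKM in IL-2 tumors and to 128 to 276 FPKM in NKTR-214 tumors, and the CD8 markers to 3.31 to 8.21 and 45.1 to 99.6 FPKM. *Cd4* reached 0.758 FPKM at most in IL-2 tumors and 1.38 FPKM in NKTR-214 tumors, and the 5 B cell markers together stayed at or below 2.01 FPKM, with *Ms4a1* and *Pax5* at 0 in some libraries.

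In NKTR-214 tumors 6 of the 9 genes were higher and 0 were lower, against 20.7% of all tested genes called higher, 8.28% called lower and 29.0% called in either direction. Over all genes 71.5% of the calls were higher, a share of 46.8% when the libraries were scaled to their 75th percentile and 37.0% after quantile normalization. At an unadjusted p under 0.05, limma likewise gave 0 of the 9 as lower. *Il7r*, *Lef1*, *Klf2*, *Ccr7*, *Bach2* and *Foxo1* rose, in that order of log2 fold change, while *S1pr1*, *Tcf7* and *Cd44* did not pass the test. The median log2 fold change of the 9 genes was 0.88, and that of all tested genes was 0.05. For 5 of the genes the groups were without overlap, all 5 higher with NKTR-214, against 27.1% of all tested genes in that direction and 42.4% in either. In RNA of a whole tumor, more cells of a type and more RNA per cell cannot be told apart.

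**Figure D1:**
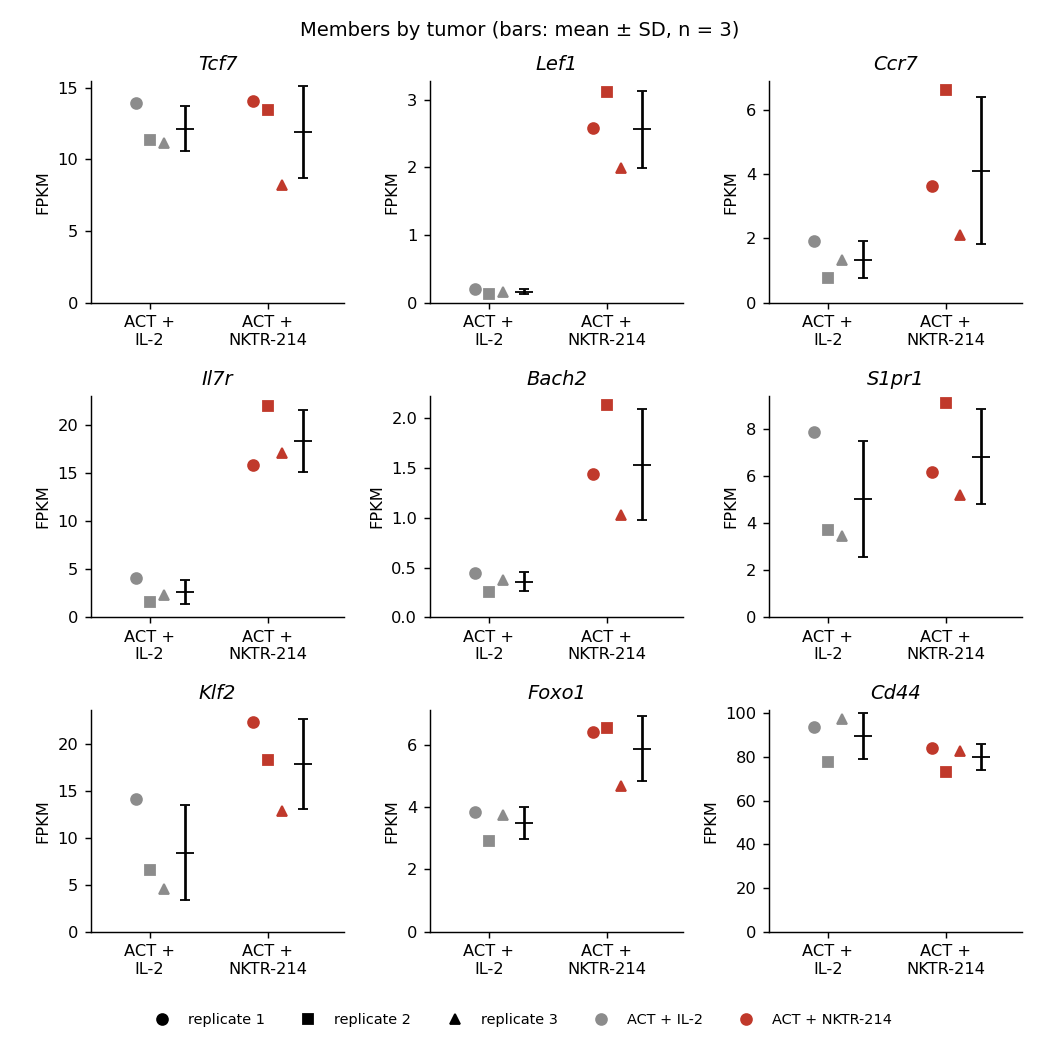
FPKM of each of the 9 genes in every tumor, with 1 panel per gene and a linear axis from 0. Points are tumors, and the bar beside them is the mean ± SD (n = 3). *Lef1*, *Ccr7*, *Il7r*, *Bach2* and *Foxo1* show no overlap between the groups, while the points of *Tcf7*, *S1pr1*, *Klf2* and *Cd44* overlap.

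Of the transcription factor genes, *Lef1* (chromosome 3, 131110471 to 131224356 in GENCODE vM21 on GRCm38) moved most. It had 0.205, 0.130 and 0.156 FPKM in IL-2 tumors (replicates 1, 2 and 3, an order kept below) and 2.58, 3.11 and 1.99 FPKM in NKTR-214 tumors. It was thus low in every IL-2 tumor, where its values stood for about 10 to 17 reads each, against about 165 to 266 reads in NKTR-214 tumors. The ratio of mean FPKM was 15.7, and the log2 fold change was 1.60 (standard error, SE, 0.13, limma adjusted p = 3.03e-07), or 3.32 with 0.1 in place of 1 added to FPKM.

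*Tcf7* (chromosome 11, 52252371 to 52283014), the closest relative of *Lef1* in T cells, behaved differently. Its values were 13.9, 11.3 and 11.1 FPKM in IL-2 tumors and 14.1, 13.4 and 8.20 FPKM in NKTR-214 tumors, so that the lowest and the highest tumor both belonged to the NKTR-214 group. The log2 fold change was -0.05, with a 95% interval from -0.45 to 0.34 (limma adjusted p = 0.865), and the interval holds no rise of the size seen for *Lef1*. Its sign was positive without IL-2 replicate 1 (0.04) and without NKTR-214 replicate 3 (0.17). FPKM is scaled to exon length, so the 2 genes can be set side by side within a tumor. *Lef1* stood at 0.0115 to 0.0147 of the *Tcf7* level in IL-2 tumors and at 0.183 to 0.242 in NKTR-214 tumors, 16.4 times higher in the mean (two-sided exact permutation p = 0.1, the smallest that 3 against 3 tumors allow). This ratio was added after the values of both genes were seen. It restates the rise of *Lef1* beside a level *Tcf7* and is no separate result. The other TCF/LEF genes, *Tcf7l1* and *Tcf7l2*, had means of 4.31 and 3.73 FPKM in IL-2 tumors and 4.29 and 4.22 FPKM in NKTR-214 tumors, and neither passed the test (limma adjusted p = 0.993 and 0.499).

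*Bach2* (chromosome 4, 32238804 to 32586108), a repressor of effector programs, rose from a low level. It had 0.440, 0.258 and 0.378 FPKM in IL-2 tumors and 1.44, 2.14 and 1.03 FPKM in NKTR-214 tumors. No tumors overlapped, and the log2 fold change was 0.88 (SE 0.14, limma adjusted p = 0.000207). Its ubiquitous relative *Bach1* had a log2 fold change of 0.38 and missed the threshold (limma adjusted p = 0.0764).

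*Foxo1* (chromosome 3, 52268336 to 52353221) had 3.84, 2.91 and 3.76 FPKM in IL-2 tumors and 6.41, 6.53 and 4.68 FPKM in NKTR-214 tumors. The groups did not overlap, and the difference was modest, 1.68 times in mean FPKM with a log2 fold change of 0.61 (SE 0.17, limma adjusted p = 0.0118). The call was lost without IL-2 replicate 2 (limma adjusted p = 0.0513) and without NKTR-214 replicate 1 (limma adjusted p = 0.0523). *Foxo3* and *Foxo4*, which encode FOXO factors of overlapping targets, had log2 fold changes of -0.22 and -0.30 and did not pass (limma adjusted p = 0.325 and 0.136). Both were called lower when the libraries were quantile normalized or scaled to their 75th percentile, as were 32.1% and 26.2% of all tested genes.

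*Klf2* (chromosome 8, 72319033 to 72321656), a quiescence factor of T cells and a flow-responsive factor of endothelium, had 14.2, 6.60 and 4.51 FPKM in IL-2 tumors and 22.4, 18.3 and 12.9 FPKM in NKTR-214 tumors. IL-2 replicate 1 lay above NKTR-214 replicate 3, so the groups overlapped. The log2 fold change was 1.10 (SE 0.28, limma adjusted p = 0.00775), and it did not pass without IL-2 replicate 2 (limma adjusted p = 0.12) or with no minimum FPKM (limma adjusted p = 0.0743). Of its relatives, *Klf4*, *Klf13* and *Klf6* also rose, *Klf4* with a log2 fold change of 1.56, *Klf13* with 0.90 and *Klf6* with 0.73 (limma adjusted p = 7.13e-05, 0.000277 and 0.00169), while *Klf3* did not pass (0.19, limma adjusted p = 0.375).

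Among the surface genes, *Il7r* (chromosome 15, 9505788 to 9530176) led the 9 genes by log2 fold change of FPKM + 1, while *Lef1* had the larger ratio of mean FPKM. It had 4.04, 1.57 and 2.31 FPKM in IL-2 tumors and 15.9, 22.1 and 17.1 FPKM in NKTR-214 tumors. The groups were far apart, with a ratio of mean FPKM of 6.96. Its log2 fold change was 2.46 (SE 0.21, limma adjusted p = 6.2e-07), and 0.875% of all tested genes had a larger one. With 0.1 added to FPKM it was 2.84, below the 3.32 of *Lef1*. The genes of its partner chains also rose. *Il2rg*, the common gamma chain that IL-7 shares with IL-2 and other cytokines, had a log2 fold change of 2.21, and *Crlf2*, which pairs with the IL-7 receptor alpha chain to bind TSLP, had 1.80 (limma adjusted p = 1.28e-05 and 4.41e-06). The ligand genes *Il7* and *Tslp* stayed at or below 0.493 FPKM in every tumor and did not pass (limma adjusted p = 0.218 and 0.935).

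*Ccr7* (chromosome 11, 99144196 to 99155077) had 1.91, 0.775 and 1.31 FPKM in IL-2 tumors and 3.62, 6.59 and 2.09 FPKM in NKTR-214 tumors. The groups were separated only narrowly, with NKTR-214 replicate 3 just above IL-2 replicate 1, and about 98 and 90 reads behind these values. The log2 fold change was 1.06 (SE 0.26, limma adjusted p = 0.00519). It missed the threshold with no minimum FPKM (limma adjusted p = 0.0627), with quantile normalization (limma adjusted p = 0.0591) and without IL-2 replicate 2 (limma adjusted p = 0.108). Its ligand genes were at or near 0, with *Ccl21a* listed at 0 in all 6 tumors and *Ccl19* at 0.168 FPKM at most. *Ccl22*, which migratory dendritic cells make, was higher in NKTR-214 tumors with a log2 fold change of 0.56 (limma adjusted p = 0.00447), and *Fscn1*, another marker of those cells, did not pass (0.21, limma adjusted p = 0.546). The 7 dendritic cell markers summed to 15.3 to 27.2 FPKM in IL-2 and 29.8 to 46.3 FPKM in NKTR-214 tumors, with 5 of them called higher, and their part in the *Ccr7* values was not tested.

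*S1pr1* (chromosome 3, 115710433 to 115715072) had 7.86, 3.71 and 3.45 FPKM in IL-2 tumors and 6.15, 9.07 and 5.18 FPKM in NKTR-214 tumors. The groups overlapped, and the log2 fold change of 0.42 did not pass (95% interval -0.09 to 0.93, limma adjusted p = 0.214). It passed without IL-2 replicate 1 (0.74, limma adjusted p = 0.00103) and without NKTR-214 replicate 3 (0.57, limma adjusted p = 0.0169), and the log2 fold change was lowest without NKTR-214 replicate 2 (0.22), with 0.24 without IL-2 replicate 3 and 0.28 without IL-2 replicate 2. The outcome thus rested on single tumors. Of the other receptors for the same lipid, *S1pr4* and *S1pr3* rose. *S1pr4*, a receptor of lymphoid and myeloid cells, went from a mean of 0.438 to 5.23 FPKM with a log2 fold change of 2.06, and *S1pr3* had 1.49 (limma adjusted p = 3.77e-06 and 6.59e-05). *S1pr2*, at means of 14.2 and 18.0 FPKM, did not pass (0.33, limma adjusted p = 0.105), though it was called higher under both other scalings. *S1pr5*, known from NK and effector cells, stayed at or below 0.118 FPKM in all 6 tumors.

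*Cd44* (chromosome 2, 102811141 to 102901665) was the most abundant of the 9 genes in every tumor. It spanned 77.6 to 97.2 FPKM in IL-2 tumors and 73.1 to 83.9 FPKM in NKTR-214 tumors, each value resting on about 10027 to 12627 reads. The log2 fold change was -0.16, with a 95% interval from -0.50 to 0.19 (limma adjusted p = 0.511). With the libraries scaled to a common 75th percentile it was -0.26 and called lower (limma adjusted p = 0.0453), and with quantile normalization -0.30 (limma adjusted p = 0.0332). Those settings called 26.2% and 32.1% of all tested genes lower. Quantile normalization shifted the median over all tested genes by -0.145 (log2), and relative to the median of each setting *Cd44* stood at -0.20 there, at -0.24 with 75th percentile scaling and at -0.20 on FPKM as deposited. The gene of another ligand of CD44, osteopontin (*Spp1*), rose from a mean of 41.1 to 255 FPKM (log2 fold change 2.63, limma adjusted p = 2.58e-06). Of the hyaluronan synthase genes, *Has2* rose (0.49, limma adjusted p = 0.0276), a call lost under both other scalings, and *Has1* and *Has3* did not pass.

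With each gene's variance taken from its own 6 values, only *Lef1* of the 9 genes still passed (limma adjusted p = 0.0432 without moderation), so the other 5 calls depend on limma pooling variance between genes. That setting called 101 of the 14172 tested genes higher. Without IL-2 replicate 2, 3 of the 9 genes were called higher, namely *Lef1*, *Il7r* and *Bach2*, against 2005 of the 14227 genes tested in that fit.

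**Figure D2:**
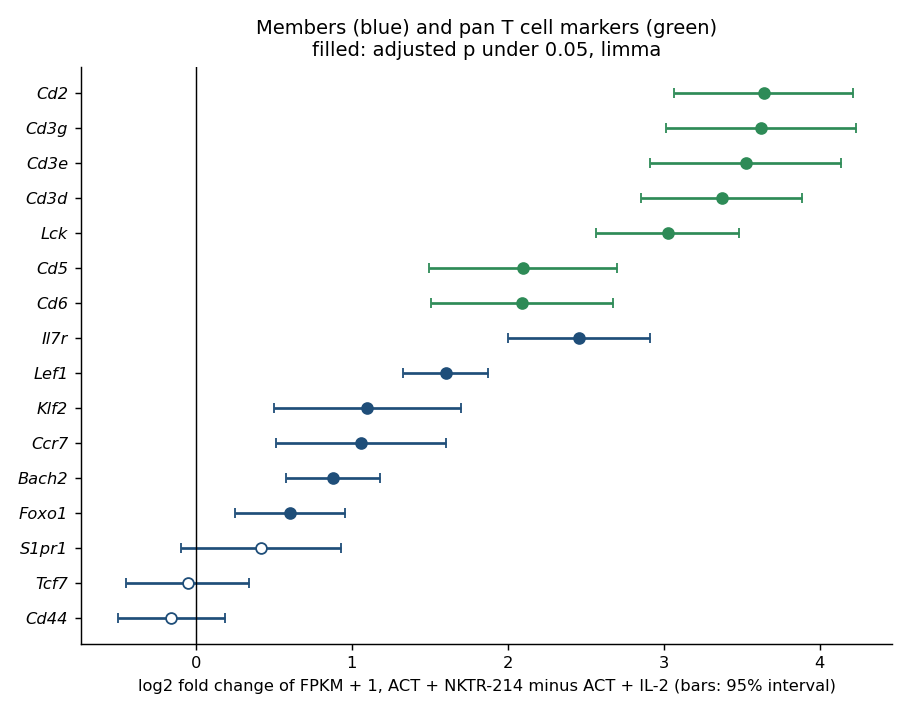
Log2 fold change of FPKM + 1 (NKTR-214 minus IL-2 tumors) of the 9 genes and of 7 pan T cell markers, with 95% intervals from limma. Filled points passed an adjusted p under 0.05. *Il7r* at 2.46 lies among the T cell markers, which run from 2.09 to 3.64, and the other 8 genes lie below all of them on this scale, which understates the change of low genes such as *Lef1*.

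Each of the 7 T cell markers was higher in NKTR-214 tumors, with log2 fold changes from 2.09 for *Cd6* to 3.64 for *Cd2*, and their mean on the log2 scale rose by 3.05. On log2(FPKM + 1) only *Il7r* of the 9 genes lay within that range. By ratio of mean FPKM, which has no added constant, *Lef1* (15.7) lay beside *Cd3e* (14.7) and above *Cd6* (7.65), and *Il7r* (6.96) lay below both. Each gene was then set against the mean of the T cell markers in its own tumor, on log2(FPKM + 1). The difference was lower in NKTR-214 than in IL-2 tumors for each of the 9 genes, with a median of -2.17, against -3.01 for all tested genes. It was without overlap for 8 of the 9 genes, against 99.1% of all tested genes, so the lack of overlap is no result about these genes. For *Il7r* the groups overlapped (difference -0.60, SE 0.35, two-sided exact permutation p = 0.2, where 0.1 is the smallest that the design allows).

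FPKM was also divided by that of *Cd3e*, the gene of a core chain of the T cell receptor complex, in the same tumor. *Cd3e* itself was higher with NKTR-214. Ratios were lower without overlap for 96.3% of all tested genes and for 8 of the 9 genes, and the median gene had a mean ratio 15.3 times lower. The ratios are therefore given as a description, to be read against that median. For *Lef1* the ratio did not separate the groups. It was 0.0386, 0.0660 and 0.0780 in IL-2 tumors and 0.0499, 0.0535 and 0.0753 in NKTR-214 tumors, with a ratio of means of 0.978. The *Lef1* values rest on about 10 to 17 reads per IL-2 tumor. For *Il7r* the ratio was 0.762 to 1.16 in IL-2 tumors and 0.308 to 0.649 in NKTR-214 tumors, 2.03 times lower in the mean. The mean ratio was 3.90 times lower for *Bach2*, 5.38 times for *Ccr7*, 6.71 times for *Klf2*, 9.88 times for *Foxo1* and 10.8 times for *S1pr1*. *Tcf7* (17.2 times) and *Cd44* (17.6 times) were near the median gene. Set against the summed melanoma markers, which were lower with NKTR-214, *Cd44* and *Tcf7* had ratios 1.69 and 1.88 times higher in the mean, and the median tested gene 1.99 times.

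**Figure D3:**
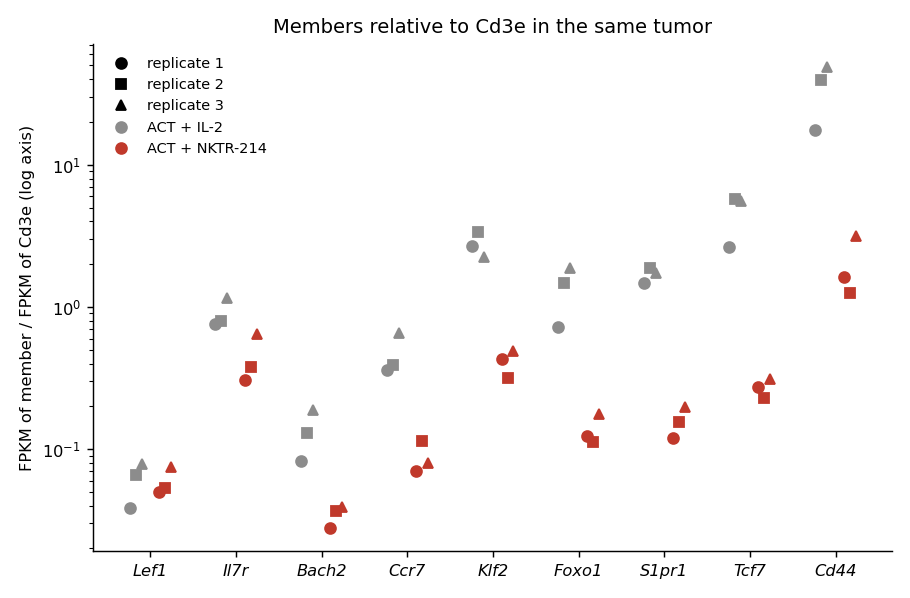
FPKM of each gene divided by the FPKM of *Cd3e* in the same tumor, on a log axis, with genes ordered by the ratio of the group means. *Lef1* overlaps between the groups at 0.0386 to 0.0780, and *Tcf7* and *Cd44* differ most, by 17.2 and 17.6 times, close to the 15.3 times of the median tested gene.

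*Tcf7* at 11.1 to 13.9 FPKM in IL-2 tumors exceeded *Cd3e*, which had 5.30, 1.97 and 1.99 FPKM there, in each of these tumors. Markers of other cell types differed in how they compared. The 6 endothelial markers summed to 25.5 to 57.9 FPKM in IL-2 tumors and 40.2 to 80.6 FPKM in NKTR-214 tumors, with *Pecam1* called higher and the other 5 not called, and the 6 macrophage and monocyte markers to 200.1 to 549 and 999.6 to 1807 FPKM, all called higher. The 7 melanoma markers summed to 5413 to 6933 FPKM in IL-2 tumors and 2664 to 3763 FPKM in NKTR-214 tumors, with 5 of them called lower. Of the B cell markers, *Cd79b* reached 1.67 FPKM in IL-2 replicate 1 and 1.36 FPKM in NKTR-214 replicate 2 and *Cd79a* 0.571 FPKM at most, while *Ms4a1* and *Pax5* stayed at or below 0.0815 FPKM. The ratio of *S1pr1* FPKM to the summed FPKM of the endothelial markers was 0.135 to 0.142 in IL-2 tumors and 0.112 to 0.129 in NKTR-214 tumors. The ratio of means was 0.871, against 0.628 for the median tested gene set over the same sum. For *Klf2* the ratio was 0.177 to 0.253 and 0.228 to 0.431 (ratio of means 1.45), and for *Foxo1* the ratio of means was 0.987. The 6 fibroblast markers were all called higher (218 to 644 and 581 to 1162 FPKM in sum), as were 2 of 4 NK cell markers (0.887 to 2.94 and 8.33 to 18.8 FPKM) and 2 of 4 regulatory T cell markers, *Il2ra* and *Ctla4*, which activated T cells also express. *Foxp3* had a mean of 2.21 FPKM in both groups, and *Ikzf2* did not pass (limma adjusted p = 0.307). Of the NK cell markers, *Klre1* and *Klrb1c* were called, and *Ncr1* and *Klra8* did not pass (limma adjusted p = 0.799 and 0.977). The part of endothelial, myeloid and tumor cells in the levels of these genes was not tested.

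The tumors of 1 group also differed together. IL-2 replicate 1 was the highest tumor of its group in 8 of the 9 genes, in all 7 T cell markers, in all 6 endothelial markers and in all 6 macrophage markers. In NKTR-214 tumors, replicate 2 was highest in 6 of the 9 genes and replicate 3 lowest in 7, and for the T cell and endothelial markers replicate 2 was highest and replicate 3 lowest throughout. *Cd44* was the exception in IL-2 tumors, with its highest value in replicate 3. The melanoma markers had another order, with 5 of 7 highest in IL-2 replicate 3 and all 7 lowest in NKTR-214 replicate 2, the tumor in which *Cd44* was lowest as well.

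**Figure D4:**
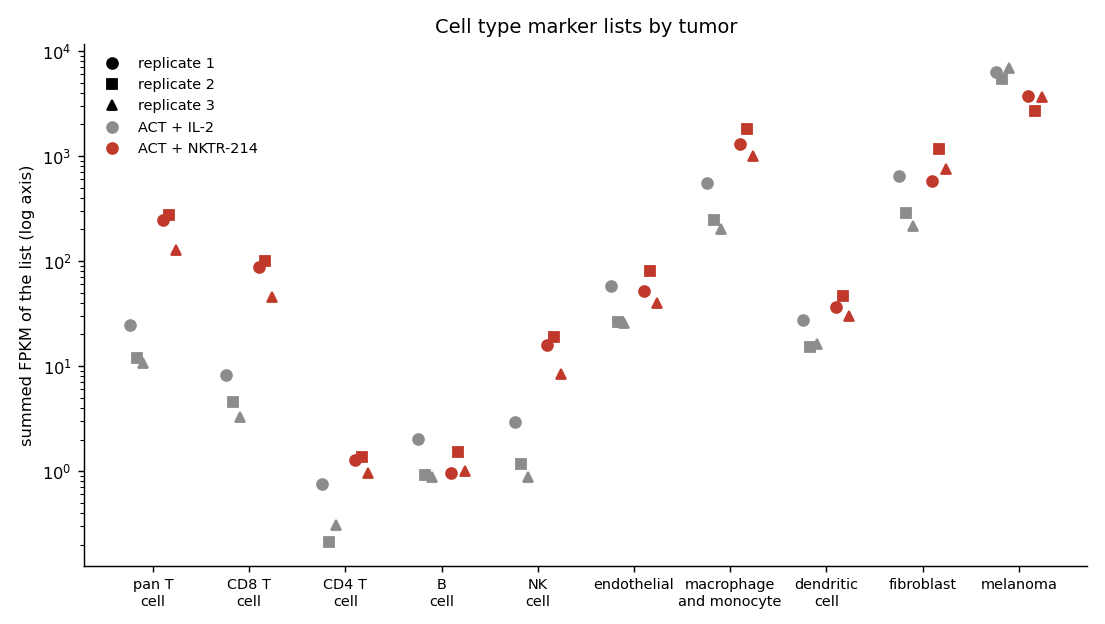
Summed FPKM of each cell type marker list in every tumor, on a log axis. The pan T cell list separates the groups (10.7 to 24.8 against 128 to 276 FPKM), the endothelial list overlaps, and the B cell list stays at or below 2.01 FPKM.

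Other genes known from naive and stem-like T cells gave a mixed picture. Of 18 listed, 17 were tested. In NKTR-214 tumors 8 were higher and 0 lower, against 20.7% and 8.28% of all tested genes. Their median log2 fold change was 0.30, against 0.05 for all tested genes. *Cd27*, a costimulatory receptor of the TNF receptor family, had the largest (2.31), followed by the TEC family kinase gene *Txk* (1.94), *Myb* (1.82), a factor that sustains stem-like CD8 T cells, *Xcl1* (1.50), *Satb1* (1.48) and *Slamf6* (1.37), a surface marker of stem-like exhausted cells (limma adjusted p = 1.3e-05, 4.7e-07, 4.56e-07, 0.000365, 2.45e-05 and 2.59e-05). The survival gene *Bcl2* and the IL-6 receptor gene *Il6ra* rose less, by 1.02 and 0.97. *Id3*, *Foxp1*, *Klf3*, *Igfbp4* and *Bcl6* did not pass, with log2 fold changes between 0.00 and 0.30, and *Cxcr5* stayed at or below 0.274 FPKM. *Nsg2* (0.26, limma adjusted p = 0.0593) and *Dapl1* (-0.07, limma adjusted p = 0.729), both known from naive T cells and low here, did not pass. *Actn1*, a cytoskeletal gene (-0.27), did not pass either. It was called lower under both other scalings, as were 26.2% (75th percentile) and 32.1% (quantile) of all tested genes.

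Genes of the effector state were led by cytotoxic genes. Of 15 tested, 11 were higher and 0 lower, against 20.7% and 8.28% of all tested genes. Their median log2 fold change was 1.24, against 0.05 for all tested genes. The largest were those of *Gzmb* (4.79) and *Prf1* (3.92), which arm killer cells, and of *Il2ra* (3.76), the high-affinity IL-2 receptor chain. *Il2ra* is also on the regulatory T cell list. *Prdm1*, which encodes the effector factor BLIMP-1, had a log2 fold change of 1.24, and *Id2* one of 0.75 (limma adjusted p = 4.02e-05 and 0.00362). *Zeb2*, *Cx3cr1*, *Nr4a1* and *Nr4a2* did not pass. The difference between the 2 lists was not tested.

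**Figure D5:**
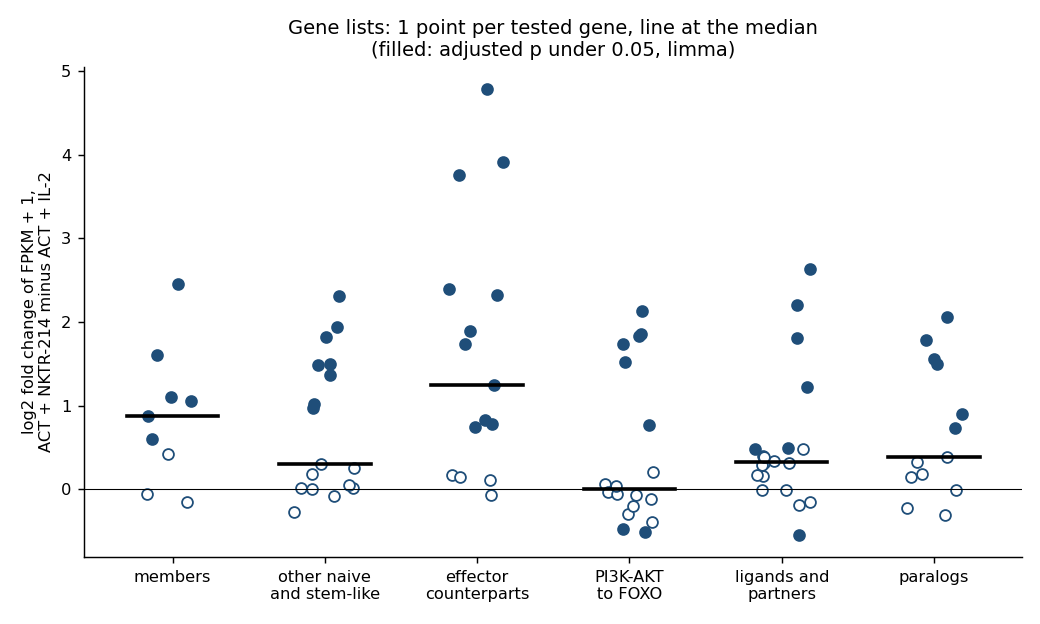
Log2 fold change of FPKM + 1 (NKTR-214 minus IL-2 tumors) of every tested gene in 6 lists (members are the 9 genes, paralogs their relatives), with 1 point per gene, filled where the adjusted p was under 0.05, and a line at the list's median. The medians run from 0.00 for the PI3K-AKT list to 1.24 for the effector list, and the 9 genes lie at 0.88.

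Genes of the PI3K-AKT pathway, which controls FOXO1, were split. Of 18 tested, 6 were higher and 2 lower, against 20.7% and 8.28% of all tested genes, with a median log2 fold change of 0.00. Leukocyte forms of PI3K rose, *Pik3cg* by 1.85, *Pik3cd* by 1.83 and the regulatory subunit gene *Pik3r5* by 1.53, together with *Pik3r1* (0.77), the phosphatase gene *Inpp5d* (1.74) and *Sgk1* (2.14), an AKT-related kinase that also acts on FOXO factors. *Akt1*, at a mean of 191 FPKM in IL-2 tumors and 133 FPKM in NKTR-214 tumors, and *Rictor*, of the mTORC2 complex, fell by 0.51 and 0.48 on the log2 scale (limma adjusted p = 0.0459 and 0.0248). *Akt2*, *Mtor* and the 14-3-3 genes *Ywhab*, *Ywhaq* and *Ywhaz* did not pass. With 75th percentile scaling, and likewise with quantile normalization, 7 of the 18 were lower, against 26.2% and 32.1% of all tested genes, and 6 were again higher. The list holds *Pdk1*, which encodes a mitochondrial kinase of pyruvate dehydrogenase and not the kinase that activates AKT (*Pdpk1*, -0.03, limma adjusted p = 0.919). Without *Pdk1*, 6 of 17 were higher and 2 lower, with a median of 0.04, and 6 were lower under either of the other scalings.

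Of the 20 tested genes for ligands, ligand-making enzymes and protein partners, 7 were higher and 1 was lower, against the same 20.7% and 8.28%. With quantile normalization 3 were lower (*Ctnnb1*, *Has3* and *Tle1*), against 32.1% of all tested genes. Beside those given above, *Sphk1*, which makes the ligand of S1PR1, rose by 1.22, *Tle3*, a corepressor of TCF/LEF factors, by 0.48, and *Mafk*, a partner of BACH2, by 0.40 on the log2 scale (limma adjusted p = 0.000149, 0.0221 and 0.0455). *Ctnnb1*, the gene of beta-catenin, a coactivator of TCF/LEF factors, was lower, with means of 267 FPKM in IL-2 tumors and 182 FPKM in NKTR-214 tumors (log2 fold change -0.55, limma adjusted p = 0.0496). Of 13 tested relatives of the 9 genes, 6 were higher and 0 lower, against 20.7% and 8.28% of all tested genes. They include *Lyve1*, a hyaluronan receptor like CD44 that marks lymphatic endothelium and some macrophages, with a log2 fold change of 1.78 (limma adjusted p = 9.18e-07).

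The genes whose centred log2(FPKM + 1) values over the 6 tumors lay nearest to those of each gene with a mean FPKM of at least 1 were also found, by the root mean square difference. For *Lef1* they were *Tnfsf14* (0.0444) and *Mcoln2* (0.0558), and for *Il7r* *Ccr1* (0.107) and *Adam8* (0.112). *S1pr1* lay nearest to *Col4a2* (0.0598) and *Prss23* (0.0656), and *Tcf7* to *Chtf18* (0.0676) and *Depdc1b* (0.0696). *Foxo1* lay nearest to *Sephs2* (0.0267) and *Inpp5k* (0.0269), and *Cd44* to *AI314180* (0.0140) and *Alg2* (0.0194). The nearest to *Ccr7* was *Epas1* (0.136), and the nearest to *Klf2* was *Cxcl1* (0.149). The mean FPKM of *Bach2* was below 1, so no neighbour was sought for it.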

How the data were processed

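RNA was extracted from whole tumors, 1 library per mouse and 3 mice per group. Reads were 50 bases long and single-end. The authors aligned them with HISAT2 2.0.4 to GRCm38, obtained gene counts through HTSeq, and deposited the resulting FPKM, which are not on a log scale. All 6 columns were used. Values were taken as log2(FPKM + 1), and genes whose mean FPKM reached 0.1 entered a fit with limma 3.58.1 (R 4.3.3) (eBayes with an intensity trend, Benjamini-Hochberg adjustment, threshold 0.05). For ratios and other single values, exact permutation tests (two-sided) were used. Read totals were estimated from the steps of low FPKM values in 951 single-transcript genes, of which 68.9% gave a total within 5% of the median, and reads per gene are approximate, since the exon lengths are those of GENCODE vM21. Confidence limits are 95% intervals from limma.

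The 9 genes, the gene lists and the tests were chosen with earlier results of these data known. All 9 genes were named, any gene of the lists could be, and for each of the 9 with a mean FPKM of at least 1 the 2 genes of nearest profile. The FPKM ratios (to *Cd3e*, of *Lef1* to *Tcf7*, to the endothelial and melanoma marker sums) were added after the values were seen. Alternatives were a pseudocount of 0.1, other minimum FPKM values, other scalings, no trend, no moderation, a replicate block, other T cell reference genes and each tumor left out. The fit was tested on simulated data. Ratios and plots used Python 3.11.15 with numpy 2.4.6, pandas 2.3.3 and matplotlib 3.10.9.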

Additional observations from a re-analysis of the deposited data

How the results depend on the processing

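Of the 9 genes, 6 were higher in the fit as reported, and the count ran from 3 (without IL-2 replicate 2) to 7 with each tumor left out in turn. It was 1 with each gene's own variance, a setting that gave 0 of the other naive and stem-like genes, 3 of the effector genes, 0 of the PI3K-AKT genes, 0 of the ligand and partner genes and 0 of the relatives as higher. Over all genes, 101 of 14172 were higher in that setting, so counts of 0 in these lists are no result about them. The number of the 9 genes called lower was 0, but 1 with quantile normalization and 1 when scaled to the 75th percentile, *Cd44* in both. Those settings called 32.1% and 26.2% of all tested genes lower. The sign of *Tcf7* turned without IL-2 replicate 1 (0.04) or NKTR-214 replicate 3 (0.17), in a range from -0.18 to 0.17 with each tumor left out. The median change relative to T cell markers was -2.65 with *Cd3e* alone, and -2.38 to -2.02 with each tumor left out. The cause of these changes was not tested.

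Over all genes, 2940 were higher and 1173 lower (71.5% of calls higher). The share was 37.0% with quantile normalization (2669 and 4549), 46.8% when scaled to the 75th percentile (3259 and 3709) and 50.1% without IL-2 replicate 2 (2005 and 1996). With own variances 101 genes were higher and 27 lower.

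With the replicate number as a block, 6 of the 9 genes were higher and 0 lower, against 3090 and 1227 of the 14172 genes tested. The counts of higher calls in the other naive and stem-like, effector, PI3K-AKT, ligand and partner, and relative lists moved by no more than 1.5 times. Lower calls in those lists and calls of cell type markers were not counted under the block. The numbers stand for different mice, and the labels do not say how they were given. Deviations of same-numbered tumors from their group means had correlations of -0.206, -0.0667 and 0.396 for replicates 1, 2 and 3. Whether same-numbered tumors share a further factor was not tested.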
